A study of Glycine max with 7 samples.

Results

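The regions described here are stretches of the soybean genome where GLYMA.04G093300 and GLYMA.06G314400 both had a reproducible binding site, but where the summits of the factors lay apart. They were chosen by their summits. A site of a factor was a set of peaks that overlapped between its replicates by 1 bp or more, joined. Sites of the factors that overlapped by 1 bp or more were joined into a region, and a region was kept when every member summit of GLYMA.04G093300 lay more than 100 bp from every member summit of GLYMA.06G314400. Of 12188 joined regions with a site of both factors, 5069 or 41.6% met this rule. The other 7119, which held at least 1 pair of summits within 100 bp, are called regions with close summits. The 5069 regions held 5196 or 16.8% of the 30906 GLYMA.04G093300 sites, and 5167 or 13.1% of the 39590 GLYMA.06G314400 sites.

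ChIP-seq, in which chromatin is pulled down with an antibody and its DNA sequenced, was carried out on embryos of soybean (Glycine max) cultivar Williams 82 at the cotyledon stage, dissected from seeds of 3.5 to 4.5 mm and crosslinked in 1% formaldehyde. The 2 GLYMA.04G093300 libraries were made with 2 µg of an antibody against a peptide of that protein, and the 2 GLYMA.06G314400 libraries with 3 µg of an antibody against a peptide of the other. All came from the same cultivar, tissue and stage, with no treatment and no plants lacking either factor among the 7 samples, and the 3 input libraries were not analysed here. Whole embryos mix cell types and each factor was pulled down in libraries of its own, so binding in different cells of the embryo and binding in the same cell cannot be told apart. Each antibody was raised against 1 peptide, and its specificity was not examined here.

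A transcription factor bound to DNA leaves a pile of sequenced fragments, and the summit of a peak is the point where that pile is highest, which lies close to the bound DNA when the site is single. Plant promoters and enhancers often hold sites of several factors within a short stretch, where factors may bind side by side. The peak lists name GLYMA.06G314400 AREB3, in Arabidopsis the name of a bZIP protein whose relatives recognise abscisic acid response elements and act in seed maturation. They name GLYMA.04G093300 HB22, and HB is the usual prefix of homeobox proteins in plant gene names. Chromatin was sheared to fragments of 100 to 500 bp, so a separation of 100 bp or somewhat more is shorter than many of the sequenced fragments.

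The distances between the factors fell off smoothly, with no gap on either side of 100 bp. The nearest summits of the factors were more than 100 and up to 125 bp apart in 939 regions and up to 150 bp apart in a further 709, against 1119 regions at 76 to 100 bp and 3045 at 25 bp or less. Within the 5069 regions, the nearest distance had a median of 191 bp, with 25% of regions at 136 bp or less and 25% at 290 bp or more. Distances over 300 bp were found in 1178 regions (23.2%), over 500 bp in 326 (6.43%), and over 1000 bp in 11, up to 1365 bp. The class is therefore made mostly of short separations. The limit divides a continuous range: 43 regions lay 1 bp above it and 46 exactly at 100 bp.

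**Figure D1:**
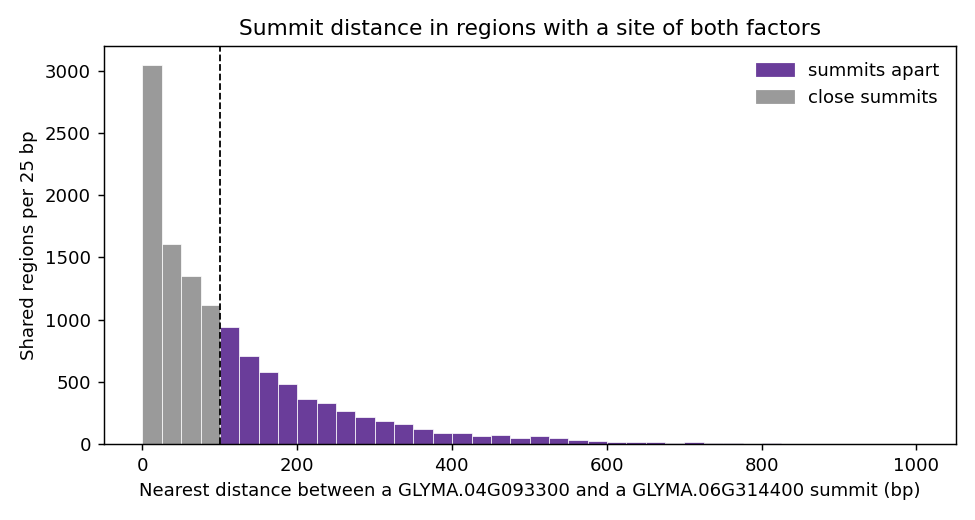
Number of regions with a site of both factors (y axis) by the nearest distance in bp between a GLYMA.04G093300 and a GLYMA.06G314400 summit (x axis, bins of 25 bp). The dashed line is the limit of 100 bp, and the bars decline across it without a break; the 11 regions over 1000 bp are not drawn.

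The values of regions just inside and just outside the limit are given without a test. The strongest member at 1 bp above the limit was chr18:48694537-48695289, with folds of 7.03 and 7.41 in GLYMA.04G093300 replicates 1 and 2 and 38.2 and 46.9 in GLYMA.06G314400 replicates 2 and 3. The next at that distance were chr4:51834380-51835084 (folds 7.66, 5.30, 20.5 and 25.3 in the same order of libraries) and chr14:17501856-17502735 (12.3, 9.74, 19.4 and 12.6). At 100 bp, the strongest regions outside were chr6:14419841-14422375 (14.5, 10.1, 41.0 and 40.3), chr13:27578688-27580327 (15.1, 11.3, 25.2 and 27.6), and chr19:45591980-45592753 (9.01, 5.66, 16.5 and 20.6). A fold is the authors' enrichment of a peak within its own library, so folds describe a peak in its list and are not compared between libraries. Coordinates are those of the deposited lists, and the genome build is not given in the sources used here.

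The order of the factors along the chromosome was compared between separate pairs of libraries. That the factors are over 100 bp apart in each pair is fixed by the rule, which used the summits of all 4 libraries, so the values below are descriptions. Of the 5069 regions, 4331 (85.4%) had exactly 1 peak in each of the 4 libraries, and these allow the factors to be placed in separate pairs of libraries. In 4238 of the 4331 (97.9%), GLYMA.04G093300 lay on the same side of GLYMA.06G314400 in the pair made of GLYMA.04G093300 replicate 1 and GLYMA.06G314400 replicate 3 as in the pair made of replicate 2 of each. In the 6234 regions with close summits and 1 peak per library the order was the same in 74.9%. The rule removes small distances from the first class, which by itself raises that share. The unsigned distances of the separate pairs had a Pearson r of 0.763 over the 4331 regions, and they differed from each other by a median of 47 bp. This correlation is across regions, which are not replicates, and the rule sets a common lower limit for both distances.

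The distance between replicate summits of a factor gives a scale for the distance between the factors. The rule sets a lower limit of over 100 bp on the distance between the factors and none on that between replicates, so their difference is no finding. In the 4331 regions, replicate summits lay a median of 37 bp apart for GLYMA.04G093300 (middle 50% of regions 15 to 76 bp) and 20 bp apart for GLYMA.06G314400 (9 to 40 bp). Between the factors, the median distance was 233 bp for GLYMA.04G093300 replicate 1 with GLYMA.06G314400 replicate 2, 232 bp for replicate 1 with replicate 3, 247 bp for replicate 2 with replicate 2, and 243 bp for replicate 2 with replicate 3. The 4 values differed by less than the distance between replicate summits of GLYMA.04G093300. In regions with close summits the replicates lay a median of 44 bp apart for GLYMA.04G093300 and 23 bp for GLYMA.06G314400. Where the factors were apart, replicate summits of the same factor were more than 100 bp from each other in 17.1% of the 4331 regions for GLYMA.04G093300 and in 5.08% for GLYMA.06G314400, and both factors kept their replicate summits within 100 bp in 3403 regions (78.6%).

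**Figure D2:**
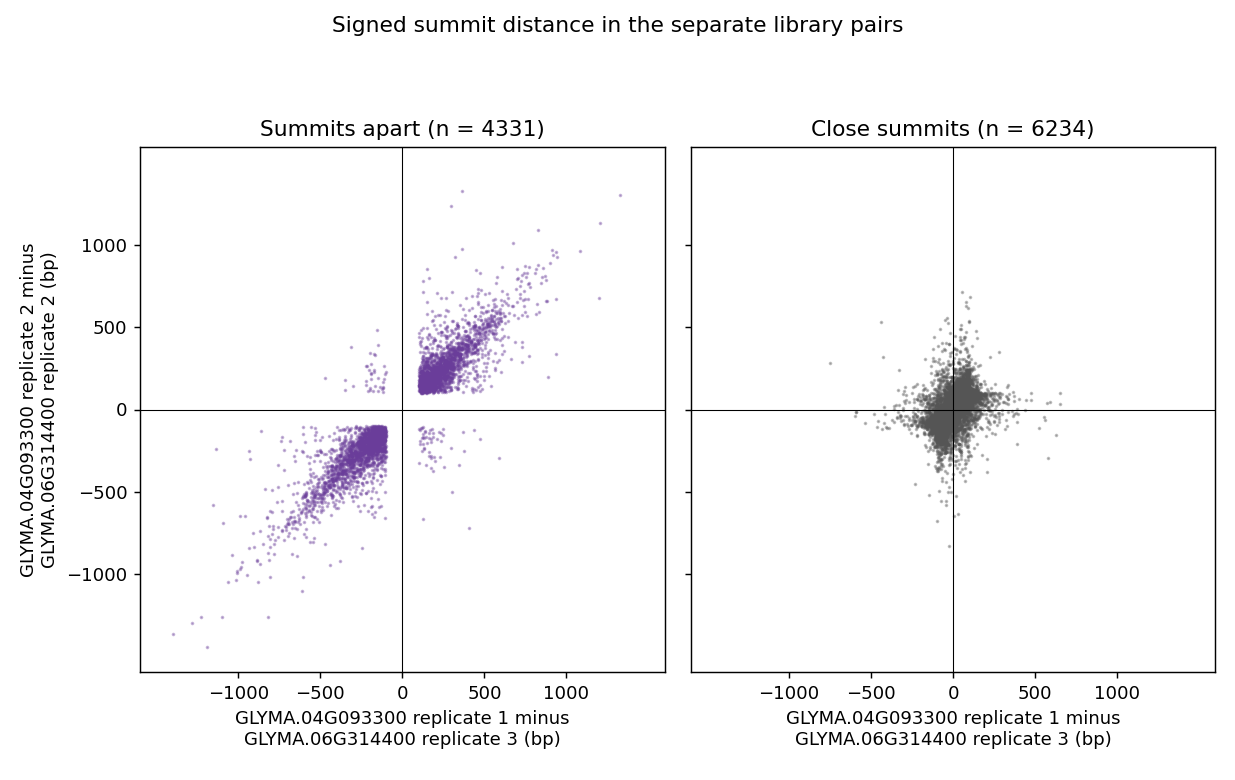
Signed distance in bp from the GLYMA.06G314400 to the GLYMA.04G093300 summit in the pair of GLYMA.04G093300 replicate 1 and GLYMA.06G314400 replicate 3 (x axis) and in the pair of replicate 2 of each (y axis); each point is a region with 1 peak per library. Of the 4331 regions with summits apart (left), 97.9% fall in the quadrants where the order is the same in both pairs, against 74.9% of the 6234 with close summits (right).

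Along the chromosome the factors mostly sat side by side, with neither favoured on the side of lower coordinates. In 4509 regions (89.0%) all summits of a factor lay on 1 side of all summits of the other, and GLYMA.04G093300 had the lower coordinate in 2268 of them (50.3%). The lists carry no strand and no genome was at hand, so the order relative to genes was not analysed here. In 343 regions (6.77%) GLYMA.04G093300 had summits on both sides of GLYMA.06G314400, and in 167 (3.29%) GLYMA.06G314400 had summits on both sides of GLYMA.04G093300. Longer alternations were seen in 50 regions (0.986%). The flanked arrangements therefore made up a minor part, and they need at least 2 summits of the outer factor, which can also be replicate summits that fell on opposite sides. Under the rule each of these must lie more than 100 bp from the summits between them, while most replicate summits lay closer together. The rule thus raises the share with each factor on 1 side, which is a description only.

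The sites of the factors were usually staggered, and each often reached under the summit of the other. In the 4847 regions with 1 site of each factor, the sites shared a median of 369 bp, which was a median of 68.8% of the GLYMA.04G093300 site and 61.4% of the GLYMA.06G314400 site. In regions with close summits the shared length was about the same, 377.5 bp, but it made up 90.6% and 77.6% of the sites, which were narrower there (455 and 513 bp, against 556 and 613 bp where summits were apart). Sites were staggered in 72.6% of the regions with summits apart and in 47.9% of those with close summits. The GLYMA.04G093300 site lay wholly inside the GLYMA.06G314400 site in 16.2% and 35.4% of these classes, and the reverse held in 11.2% and 16.7%. The rule acts on these measures too, since summits far apart need wide or staggered sites.

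When the strongest summit of each factor was set against all peaks of the other, each lay inside a peak of the other in 50.6% of the 5069 regions. The GLYMA.04G093300 summit alone did so in a further 19.4%, the GLYMA.06G314400 summit alone in 14.3%, and neither in 15.7%. Between single libraries the share with each inside the other was 40.8% for GLYMA.04G093300 replicate 1 with GLYMA.06G314400 replicate 2, 46.4% for replicate 1 with replicate 3, 29.4% for replicate 2 with replicate 2, and 34.0% for replicate 2 with replicate 3. Pairs with GLYMA.04G093300 replicate 1 gave the higher shares. That library had the longer list, 50665 peaks against 39721 in replicate 2, and its member peaks had a median width of 475 bp against 416 bp. The cause of the difference was not tested. Depending on the pair of libraries, the peaks of that pair did not overlap in 160 to 396 of the 4331 regions. There the joined sites overlapped through a peak of another library. In the 6234 regions with close summits and 1 peak per library, the shares with each inside the other were 93.2%, 94.0%, 85.6% and 87.4%, in the same order of pairs. Coverage of the other summit declined with distance. Such a decline is built in, since a peak of limited width reaches a more distant summit less often. At distances up to 150 bp, between 55.3% and 75% of regions over the 4 library pairs had each summit inside the other factor's peak, and at 501 to 1365 bp between 2.02% and 4.71% did.

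**Figure D3:**
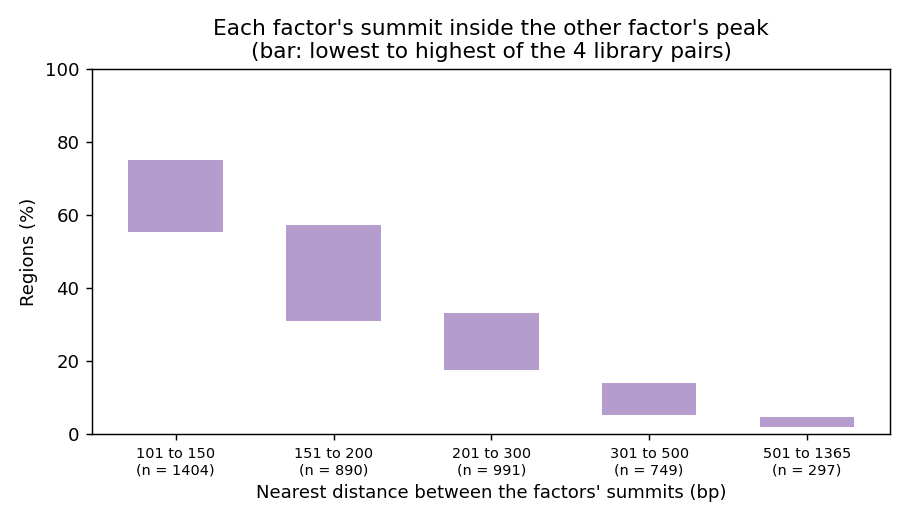
Share of regions in % (y axis) in which the summit of each factor lies inside the peak of the other, by nearest summit distance in bp (x axis); bars run from the lowest to the highest of the 4 pairs of libraries, over regions with 1 peak per library. The shares decline from 55.3 to 75% in the first class to 2.02 to 4.71% in the last, a decline that peaks of limited width build in.

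Peaks leaned towards the other factor. In GLYMA.04G093300 replicate 1 the summit lay a median of 255 bp from the edge on the side of GLYMA.06G314400 and 177 bp from the far edge, and in replicate 2 the values were 208 and 172 bp. In GLYMA.06G314400 replicate 2 they were 259 and 222 bp, and in replicate 3 they were 303 and 240 bp. The longer arm pointed to the other factor in 68.8%, 61.2%, 64.5% and 67.0% of regions in these 4 libraries. In regions with close summits these shares were 58.1%, 59.7%, 55.0% and 55.7%. All 8 shares were above 50%, and those of GLYMA.04G093300 replicate 2 differed least between the classes. Since regions enter only when the sites overlap, a lean of this kind is partly chosen by the rule, and it was not tested.

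In strength, the regions with summits apart had the higher median rank in each of the 4 libraries, but the direction depended on the setting. A peak's percentile is its rank by fold, from the lowest up, in % of the peaks in its own list, with tied folds given their mean rank. Each region was given its best peak in each library. The median percentile was 75.3 in regions with summits apart and 71.7 in regions with close summits for GLYMA.04G093300 replicate 1, and 67.5 and 62.9 for replicate 2. It was 64.8 and 60.1 for GLYMA.06G314400 replicate 2, and 71.1 and 65.5 for replicate 3. The difference was 4.14 ± 0.722 points for GLYMA.04G093300 and 5.10 ± 0.566 points for GLYMA.06G314400 (SD, n = 2 libraries each) and was positive in all 4 libraries. No test was made over the libraries, whose values rest on the same regions. Restricted to the 10000 peaks of highest fold in each list, the difference was -0.0798 points for GLYMA.04G093300 and 1.70 points for GLYMA.06G314400, and with an overlap of 50% of both intervals it was 10.1 points for each. Without GLYMA.04G093300 replicate 1 the first difference was 2.45 points, and without GLYMA.06G314400 replicate 3 the second was 2.28 points.

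Regions with summits apart were wider, with a median of 848 bp against 620 bp, and 1671 of them (32.97%) reached 1000 bp, against 892 (12.5%) of those with close summits. The rule selects for this. Within 20 groups of equal region number by width, the difference in percentile turned round, to -3.36 ± 0.405 points for GLYMA.04G093300 and -6.45 ± 0.597 points for GLYMA.06G314400 (SD, n = 2 each). This comparison was added after the widths were seen. The regions with summits apart were higher in 2 and 4 of the 20 groups for GLYMA.04G093300 replicates 1 and 2, and in 4 and 6 for GLYMA.06G314400 replicates 2 and 3. In regions of 501 to 600 bp, for example, the median percentile in GLYMA.06G314400 replicate 2 was 45.9 in the 501 regions with summits apart and 59.4 in the 1536 with close summits. In regions over 1500 bp the direction was the opposite, with 82.3 in 347 regions with summits apart and 80.5 in 195 with close summits. The width is that of the joined region and includes the separation, so grouping by it acts on the classes unequally, and the lower rank at equal width is a description of that grouping only.

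**Figure D4:**
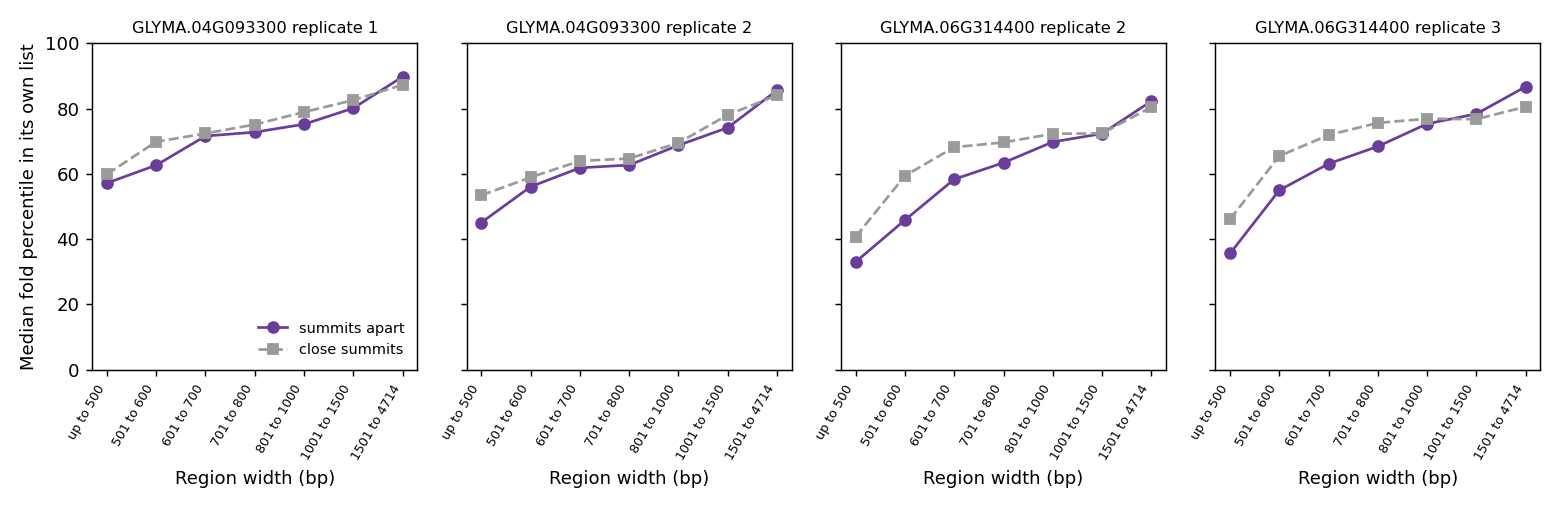
Median percentile of fold within its own list (y axis) of the best peak per region, by width of the region in bp (x axis), in each of the 4 libraries. Regions with summits apart (circles) lie below regions with close summits (squares) in most width classes and above them in the widest, over 1500 bp.

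Peaks in these regions passed a stricter threshold more often than the lists as a whole. A q-value of 1e-05 or lower was reached by 96.0% of the 5403 member peaks in GLYMA.04G093300 replicate 1, where the share over all its peaks was 86.1%, and by 90.7% of the 5445 in replicate 2, where it was 83.4%. For GLYMA.06G314400 it was reached by 98.0% of 5329 member peaks in replicate 2 and 98.9% of 5207 in replicate 3, against 97% and 95.8% of all peaks in those lists. Member peaks were seen in both replicates by the rule, so a higher share than that of the full lists is built in. Regions with close summits, chosen in the same way, had 95.02%, 88.7%, 97.7% and 98.8% in the same order of libraries, within 2 points of the regions with summits apart.

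The fold percentiles of the factors had almost no linear relation across the regions. Over the 4331 regions, the mean percentile of GLYMA.04G093300 and that of GLYMA.06G314400 had a Pearson r of 0.0462, whereas replicates had an r of 0.541 for GLYMA.04G093300 and 0.851 for GLYMA.06G314400. The same held in the 6234 regions with close summits, with an r of 0.0409 between factors. These values are descriptions across regions of the same libraries. Both factors were in the upper 50% of their lists in all 4 libraries in 1819 regions (35.9%), and in the upper 10% in 150 (2.96%). In regions with close summits these shares were 30.6% and 1.55%.

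A few regions were strong for a single factor. In 82 regions (1.62%) GLYMA.04G093300 was above the percentile of 75 in both its libraries while GLYMA.06G314400 was at or below 25 in both of its own, and in 60 (1.18%) it was the other way round. Among regions with close summits these shares were 2.04% and 0.885%. The most uneven of the first kind lay at chr11:2351624-2352332, with folds of 16.5 and 13.6 in GLYMA.04G093300 replicates 1 and 2 and of 3.19 and 3.61 in GLYMA.06G314400 replicates 2 and 3. Its summits were 136 bp apart at the nearest. The most uneven of the second kind lay at chr8:21282136-21283464, with folds of 2.85 and 2.68 in the libraries of GLYMA.04G093300, beside 37.9 and 38.4 in those of GLYMA.06G314400, and a nearest distance of 579 bp. There the replicate summits of the weak factor lay 253 bp apart and those of the strong factor 18 bp. Both examples were chosen after their values were seen.

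The regions strongest for both factors differed in the order and number of their peaks. They were ranked by the lowest of their 4 percentiles, which ran from 98.2 to 99.6 in the 10 highest, against a median of 36.5 over all 5069. These 10 lay on 8 chromosomes, were 907 to 2655 bp wide and had nearest distances of 113 to 347 bp, with a median of 186.5 bp, close to the 191 bp of all 5069. The highest, at chr6:8390567-8391614, had GLYMA.04G093300 summits 427 and 417 bp from its start in replicates 1 and 2, and GLYMA.06G314400 summits 548 and 540 bp from its start in replicates 2 and 3. Its replicates thus differed by 10 and 8 bp and the factors by 113 bp or more. The region of rank 8, at chr4:9727246-9728243, held the peak with the highest fold of GLYMA.04G093300 replicate 1, at 32.4, with 19.2 in replicate 2, with folds of 36.4 and 51.0 for GLYMA.06G314400. There the replicate summits were 5 and 2 bp apart, and the factors 118 bp.

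In the region of rank 4, at chr19:44464557-44465463, GLYMA.06G314400 came first along the chromosome, at 335 and 332 bp from the start, with folds of 44.2 and 45.6. GLYMA.04G093300 followed at 519 and 535 bp, with folds of 13.1 and 10.8. The same order was found at rank 9, at chr10:38608764-38609819, with a nearest distance of 194 bp and GLYMA.04G093300 folds of 17.6 and 14.4 beside GLYMA.06G314400 folds of 36.2 and 50.3. The opposite order was found at rank 5, at chr6:11651069-11652255 (189 bp; folds 15.2 and 15.4, and 38.5 and 48.4), and at rank 7, at chr5:39429721-39430924 (287 bp; folds 15.5 and 9.82, and 43.3 and 48.6). At rank 7 the replicate summits of GLYMA.04G093300 were 100 bp apart and those of GLYMA.06G314400 23 bp. Both orders were thus found among the strongest regions.

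Wider regions of the 10 held more than 1 peak of a factor. At rank 3, at chr13:44101680-44103787, 2 peaks of GLYMA.04G093300 were called in replicate 1 but only 1 in replicate 2, and its main summits lay 347 bp or more beyond those of GLYMA.06G314400. At rank 6, at chr17:1065513-1067257, it had 2 peaks in each replicate, all on the same side of GLYMA.06G314400. At ranks 2 and 10 the summits of the GLYMA.06G314400 replicates differed in position. In the region of rank 2, at chr4:46558414-46561068, the strongest GLYMA.06G314400 summit lay 1630 bp from the start in replicate 2 and 2300 bp from the start in replicate 3, 670 bp away, while the main GLYMA.04G093300 summits lay at 1366 and 1385 bp. Replicate 2 of GLYMA.06G314400 had a further peak at 491 bp (fold 21.0), and replicate 1 of GLYMA.04G093300 a further weak peak at 665 bp (fold 3.29). That GLYMA.06G314400 had summits on both sides of GLYMA.04G093300 there rests on the peak at 491 bp, called as a separate peak in replicate 2 only. In replicate 3, 1 wide peak covered the positions of both replicate 2 summits, with its own summit at 2300 bp. In the region of rank 10, at chr16:4820391-4822500, the GLYMA.06G314400 summits lay at 1600 bp in replicate 2 and 1074 bp in replicate 3, 526 bp apart. GLYMA.04G093300 had summits on both sides of them in both its replicates, at 938 and 858 bp and at 1829 and 1816 bp in replicates 1 and 2.

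**Figure D5:**
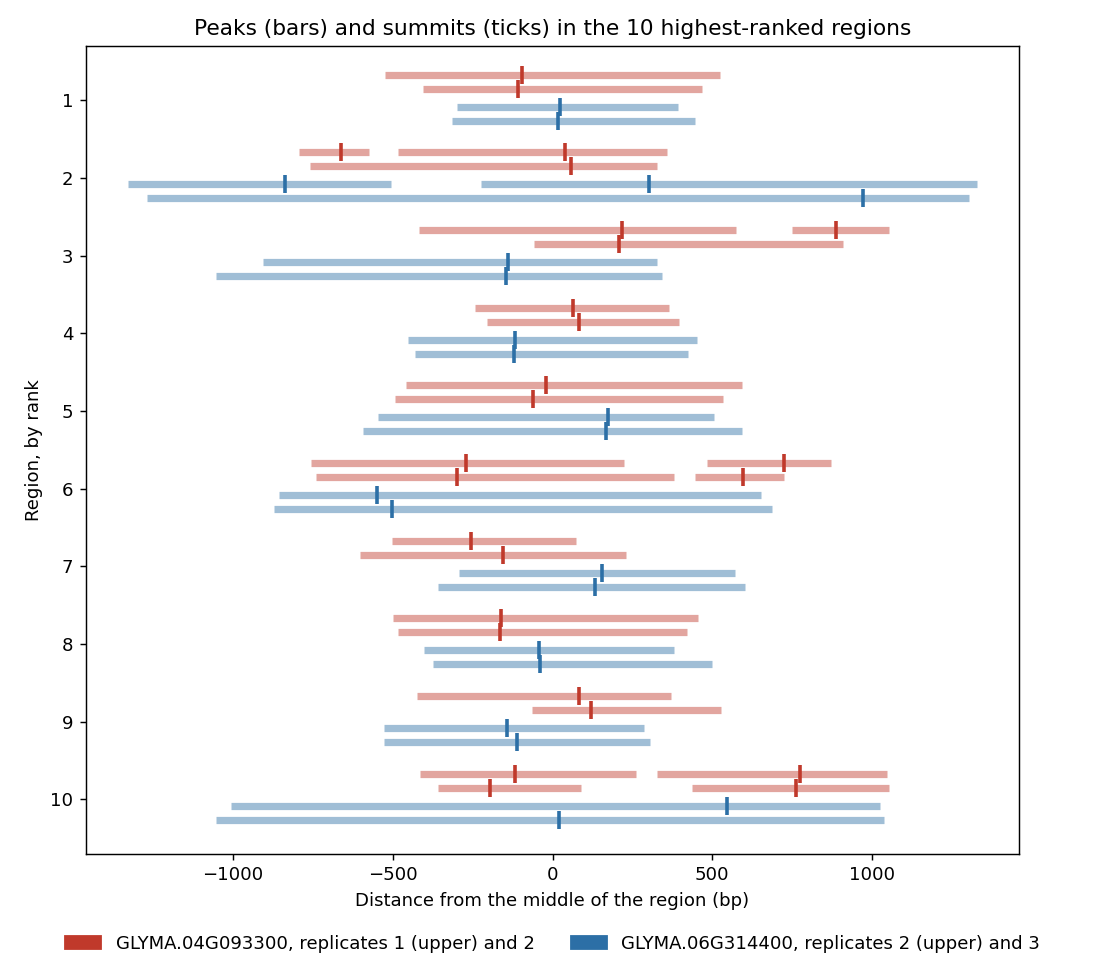
Peaks (bars) and their summits (ticks) of GLYMA.04G093300 (red, replicates 1 and 2 from the top) and GLYMA.06G314400 (blue, replicates 2 and 3 from the top) in the 10 highest-ranked regions with summits apart, by distance in bp from the middle of the region (x axis). Replicate ticks nearly line up in most regions while the factors are offset by at least 113 bp; at ranks 2 and 10 the GLYMA.06G314400 ticks of the replicates lie 670 and 526 bp apart.

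The longest separations exceeded 1000 bp. The region with the longest nearest distance, 1365 bp, lay at chr8:39341185-39343092 and had GLYMA.04G093300 folds of 6.21 and 4.57 beside GLYMA.06G314400 folds of 12.6 and 12.8. It was followed by regions at chr6:15222873-15224715 (1287 bp; folds 4.98 and 4.81, and 35.7 and 32.5) and at chr14:6450717-6452624 (1276 bp; 10.4 and 8.27, and 24.3 and 34.1). The next were at chr8:46702654-46704403 (1229 bp; 7.29 and 6.72, and 4.80 and 3.14) and at chr8:5453708-5455589 (1137 bp; 4.89 and 6.15, and 25.7 and 28.2). All 5 had 1 peak in each library, and the replicate summits of each factor lay within 56 bp of each other. The 326 regions over 500 bp had median percentiles of 78.2 and 71.7 in the libraries of GLYMA.04G093300, beside 76.9 and 78.5 in those of GLYMA.06G314400, with a median width of 1259.5 bp. The 1648 regions at up to 150 bp had 75.4, 67.3, 61.9 and 68.6 and a median width of 719 bp.

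On the chromosomes the regions followed the other sites of the factors. Of the 5044 on the 20 chromosomes, 19.2% lay in the middle 50% of the chromosome span, against 19.8% of regions with close summits, 19.6% of all GLYMA.04G093300 sites and 21.6% of all GLYMA.06G314400 sites. The outermost 10% at each end together held 42.3% of them, against 41.2% of regions with close summits. The middle 20% held 239 (4.74%), against 5.01% of regions with close summits, 5.16% of all GLYMA.04G093300 sites and 5.96% of all GLYMA.06G314400 sites. Within 1 Mb of a chromosome end lay 425 (8.43%), against 7.83%, 8.52% and 7.83% in the same order. Chromosome 13 held the most, 377, but it also had the most regions of both factors, 920, of which these made up 41.0%. Chromosome 14 held the fewest, 141 of its 435 regions of both factors. Among the regions of both factors, the share with summits apart was 38.9% to 44.4% on 18 chromosomes. It was 37.1% on chromosome 15 and 32.4% on chromosome 14 (95% Wilson interval 28.2 to 36.9, counting error only). Chromosome 14 was picked as the lowest of the 20 after the values were seen, and the interval makes no allowance for that. On chromosome 14 the regions of both factors had a median width of 677 bp, within a range of 674 to 745.5 bp over the chromosomes. The lowest of these widths, 674 bp, was that of chromosome 18, where the share was 43.5%. Whether width bears on the share of a chromosome was not tested.

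Most of the regions had other binding sites nearby. The nearest other reproducible site of either factor lay a median of 1369.5 bp away, and 92.6% had a site within 10 kb. For regions with close summits the values were 1419 bp and 91.2%. Peaks seen in only 1 library, which are no members, also lay on some of the regions, most of them from GLYMA.04G093300 replicate 1 (265 peaks). In 175 regions (3.45%) the summit of such a peak was within 100 bp of a summit of the other factor. In these, the separation rests on leaving out peaks that did not recur. When a library was left out and all peaks of its partner stood for sites, the number of regions with summits apart was higher in each case, and without GLYMA.04G093300 replicate 2 it was 7809.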

How the data were processed

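The authors called peaks in each ChIP library separately and deposited 1 narrowPeak list per library. Reads were aligned with Bowtie 0.12.7 and peaks called with MACS3, as far as the tools named in the submitters' processing notes show. Their settings, the genome build and any use of the inputs were not given in the sources used here. Per peak, the deposited lists hold a fold enrichment (a ratio), the −log10 of a p-value and of a q-value (all q at or below 0.01), a score, which was not used, and the summit offset. The lists hold no read counts, so depth is unknown, and the 2 GLYMA.04G093300 lists had 50665 and 39721 peaks and the 2 GLYMA.06G314400 lists 45324 and 50147. Names inside the lists number the replicates differently from the sample labels, which were followed.

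Sites and regions were built as described in the results, with pandas 2.3.3 and numpy 2.4.6 under Python 3.11.15, intervals with scipy 1.17.1 and figures with matplotlib 3.10.9. The code was tested on simulated data whose planted distances stayed away from the limit of 100 bp, so that test does not bear on regions near the limit. Chromosome length was set to the highest peak end in any list. The regions named were the 10 with the highest minimum percentile, the 5 with the longest distance, and 3 on each side of the limit. The members and lists were chosen with earlier results of these data known. The series describes the replicates as biological, and no test over libraries is given. No genome of the lists' build was at hand, so planned counts of genes and motifs were not made.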

Additional observations from a re-analysis of the deposited data

How the results depend on the processing

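The share of regions in the middle 50% of the chromosomes moved by less than its counting error under all 10 alternatives, and was 18.8% to 19.5% with a library left out. The number of regions was 2359 with a limit of 200 bp, 2239 with an overlap of 50% of both intervals and 584 with the 10000 highest peaks per library, where fewer regions enter by construction, and 5839 to 7809 with a library left out. The share of shared regions with summits apart was 61.8% with a limit of 50 bp, 19.4% with 200 bp, 43.1% at a q of 1e-05, 31.1% with an overlap of 50%, 56.0% with the 10000 highest peaks, 59.9% with the strongest summits only, and 46.0% to 55.1% with a library left out. In the same order of settings, apart from q, the median nearest distance was 137, 300, 160, 211.5 and 219 bp, and it was 190 to 195 bp with a library left out. The 219 bp is the distance between the strongest summits of the factors. The share of regions with each summit inside a peak of the other was 63.7%, 25.9%, 52.6% (q of 1e-05), 80.4%, 72.9% and 59.3%, and 41.5% to 48.4% with a library left out. The difference in fold percentile for GLYMA.04G093300 was 5.34 points (50 bp), 2.67 (200 bp), 2.70 (q), 10.1 (overlap), -0.0798 (10000 highest) and -3.36 (equal width), with 2.45 to 5.18 when a library was left out. For GLYMA.06G314400 it was 6.30, 5.70, 4.47, 10.1 and 1.70 in the same order, 3.11 with the strongest summits only and -6.45 at equal width, with 2.28 to 5.93 when a library was left out. A change of limit moves the number, the share and the median distance by definition. Taking only the strongest summits can only raise the number and the share. The cause of the other moves was not tested, beyond the lower counts where fewer peaks enter. No paired analysis was possible because the factors share only 1 replicate number. Unknown depth limits the lists: a peak that is missing did not pass the authors' threshold, and summit positions carry no stated error.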
